A study of Homo sapiens with 2 samples.

Results

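Matricellular proteins are secreted into the extracellular matrix but act on cells more than they build fibres. They bind integrins, syndecans and other surface receptors, tune adhesion and growth factor signals, and are induced in wound repair, fibrosis and tumour stroma. In squamous epithelium most of them are sparse in resting tissue, and the fibroblasts beneath it are a major source. Described here are 10 genes of this kind and of related matrix glycoproteins, chosen by name: TNC, FSTL1, SPARC, SPOCK1, THBS1, THBS2, CCN1, FN1, POSTN and GREM1. They are 10 of the 19775 genes with a probe set of a single symbol, and every probe set annotated to them was used, 32 of 41097. The genes were chosen with earlier results of these data known, so their counts are not those of an independently picked set.

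The cells were KYSE-140, a human cell line established from an esophageal squamous carcinoma, which flow cytometry had separated into a CD90+ and a CD90- fraction. CD90, the product of THY1, is a membrane glycoprotein of fibroblasts, endothelial cells and some tumour cells. Total RNA of 1 CD90+ and 1 CD90- sample was hybridised to 1 Affymetrix U133 Plus 2.0 array each, and both fractions come from this single line with no treatment named in the labels. With 1 array per population there was no replicate error and no test, so each fold compares these RNA samples only, and the number of arrays limits the precision. Signals are MAS5 signals on a linear scale in arbitrary units, and they are compared only within a probe set. A floor of 71.6, the median signal over both arrays, was applied, so a fold with one side under it is a lower bound.

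Of the 10 genes 3 were at least 2-fold higher in CD90+ cells (FSTL1, SPARC and TNC), 0 were at least 2-fold lower, 3 lay between (CCN1, THBS1 and SPOCK1) and 4 were represented by a probe set under the floor in both fractions (FN1, THBS2, POSTN and GREM1). Over all 12466 measured genes 2.47% were higher by that much and 1.75% lower. By probe set 6 of the 32 were at least 2-fold higher, 0 lower, 9 between and 17 under the floor on both arrays, where 1.90% of the 29097 measured probe sets were higher and 1.56% lower. SPARC passed the floor only through its CD90+ signal, so its inclusion among the measured genes already required a difference. In RNA of a whole fraction, more cells with a transcript and more transcript per cell cannot be told apart.

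The 250 bases before the annotated gene start are shown for the 3 genes beyond 2-fold, to give the sequence context of the starts whose transcripts were higher. They are from RefSeq, build GRCh38.p14, written 5′ to 3′ on the minus strand that carries each of these genes. They span chr3:120450993-120451242 for FSTL1, chr5:151686916-151687165 for SPARC and chr9:115118158-115118407 for TNC. Capitals mark matches, on either strand, to a purine repeat (GGAGGA or TCCTCC), to the TEAD word (GGAATG or CATTCC) and to a TATA word (TATATA).
FSTL1: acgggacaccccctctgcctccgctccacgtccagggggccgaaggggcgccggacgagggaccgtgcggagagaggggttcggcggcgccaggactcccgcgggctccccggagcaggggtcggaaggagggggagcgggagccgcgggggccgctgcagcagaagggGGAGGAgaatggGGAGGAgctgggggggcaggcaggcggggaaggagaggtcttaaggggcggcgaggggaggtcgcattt
SPARC: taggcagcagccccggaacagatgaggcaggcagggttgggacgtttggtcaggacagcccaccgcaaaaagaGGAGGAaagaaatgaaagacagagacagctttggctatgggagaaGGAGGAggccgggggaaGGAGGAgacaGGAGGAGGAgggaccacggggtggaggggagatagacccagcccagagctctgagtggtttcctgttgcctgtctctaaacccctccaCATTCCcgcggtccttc
TNC: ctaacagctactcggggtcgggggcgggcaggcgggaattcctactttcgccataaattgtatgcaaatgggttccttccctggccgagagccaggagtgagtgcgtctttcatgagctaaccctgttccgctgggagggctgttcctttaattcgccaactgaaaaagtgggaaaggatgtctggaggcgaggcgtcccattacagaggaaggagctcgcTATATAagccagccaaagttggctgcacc

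The 3 windows differed in composition. SPARC held 5 matches to the purine repeat, 1 pair of them overlapping, the outermost beginning 177 bases and the innermost ending 97 bases before the start, and FSTL1 held 2. TNC held none and had the TATA word 29 to 24 bases before its start. Of all 35116 promoter windows of that length, 31.8% held the purine repeat, 3.73% the TATA word and 11.9% the TEAD word, which SPARC had once. The AP-1 word (TGANTCA, in 6.57% of windows) and an ETS word (CCGGAAG or CTTCCGG, in 8.52%) had 0 matches in these 3 windows. The words were also found before genes that were not beyond 2-fold: the purine repeat 3 times before THBS2, 2 times before THBS1 and 1 time before FN1, the TEAD word 2 times before THBS2 and 1 time before THBS1, and the TATA word 1 time before POSTN, which also held 1 AP-1 word. Purines made up 66.8% of the FSTL1 strand, 63.6% of the SPARC strand and 53.6% of the TNC strand. Promoter windows matched 8 of the 10 genes. The words were chosen with the array values known, and a match to letters is not a bound site.

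Tenascin-C (TNC, chromosome 9) is a large hexameric glycoprotein that loosens cell adhesion and is deposited around tumour nests and healing wounds. Its brightest probe set, 201645_at, read 8127 in CD90+ and 3494 in CD90- cells, which is 2.33-fold higher (log2 ratio 1.22). The second, 216005_at, read 417 in CD90+ and 161 in CD90- cells, 2.60-fold higher (log2 ratio 1.38). The third, 237169_at, read 102 in CD90+ and 36.6 in CD90- cells, which the floor turns into a bound of at least 1.43-fold. All 3 probe sets were higher in CD90+ cells, and CD90- cells also had TNC signal far above the floor on the brightest one. Differences of this size were less common among bright genes: of the 5012 genes whose brighter signal was at least 16 times the floor, 1.16% were at least 2-fold higher. For genes that bright the log2 ratios of different probe sets of a gene had a pooled SD of 0.28, which measures how far probe sets on the same arrays differ and covers neither noise they share nor the spread between sorts. The 3 TNC probe sets, the bound included, had an SD of 0.46.

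SPARC and its relatives share a follistatin-like module and the extracellular (EC) domain named after SPARC, and 3 of them were among the 10 genes. FSTL1 (chromosome 3), a secreted glycoprotein that binds BMP ligands and TGF-beta family proteins and acts on keratinocyte migration, gave the largest ratio of the 10. Its probe set 208782_at read 845 in CD90+ and 99.7 in CD90- cells. It was 8.48-fold higher (log2 ratio 3.08), which ranked 8 from the top among the 12466 measured genes. Its other 2 probe sets were under the floor on both arrays and went opposite ways, with 46.2 in CD90+ and 10.7 in CD90- cells on 240891_at and 5.11 in CD90+ and 31.4 in CD90- cells on 230744_at. The FSTL1 difference thus rests on 1 probe set. Its CD90- signal lies near the floor, and with a floor at the 75th percentile of signals (397) the log2 ratio became a bound of 1.09.

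SPARC (osteonectin, chromosome 5), a collagen-binding and counter-adhesive protein, was present above the floor only in CD90+ cells. Probe set 200665_s_at read 209 in CD90+ and 18.6 in CD90- cells, at least 2.92-fold higher, a log2 bound of 1.55. The second, 212667_at, was far under the floor in both, at 4.77 in CD90+ and 6.90 in CD90- cells. Without the floor the first probe set gave a log2 ratio of 3.49, a value that rests on a CD90- signal too dim to measure. SPARC was among the dim genes, of which 3.24% (brighter signal under 4 times the floor) were at least 2-fold higher, and the pooled SD between probe sets of such genes was 0.40. With probe sets shared between transcripts left out, no SPARC probe set reached the floor.

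SPOCK1 (testican-1, chromosome 5), a proteoglycan of the same family, did not share that direction. Its 1 probe set read 621 in CD90+ and 778 in CD90- cells, for a log2 ratio of -0.32, smaller in size than the pooled SD of 0.34 between probe sets of genes of that brightness. Of the family's other genes, from a fixed list, SPARCL1 read 129 in CD90+ and 145 in CD90- cells and SPOCK2 138 in CD90+ and 97.9 in CD90- cells, with the opposite sign on the other measured probe set of SPOCK2. SMOC1, SMOC2 and SPOCK3 were under the floor on both arrays.

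**Figure D1:**
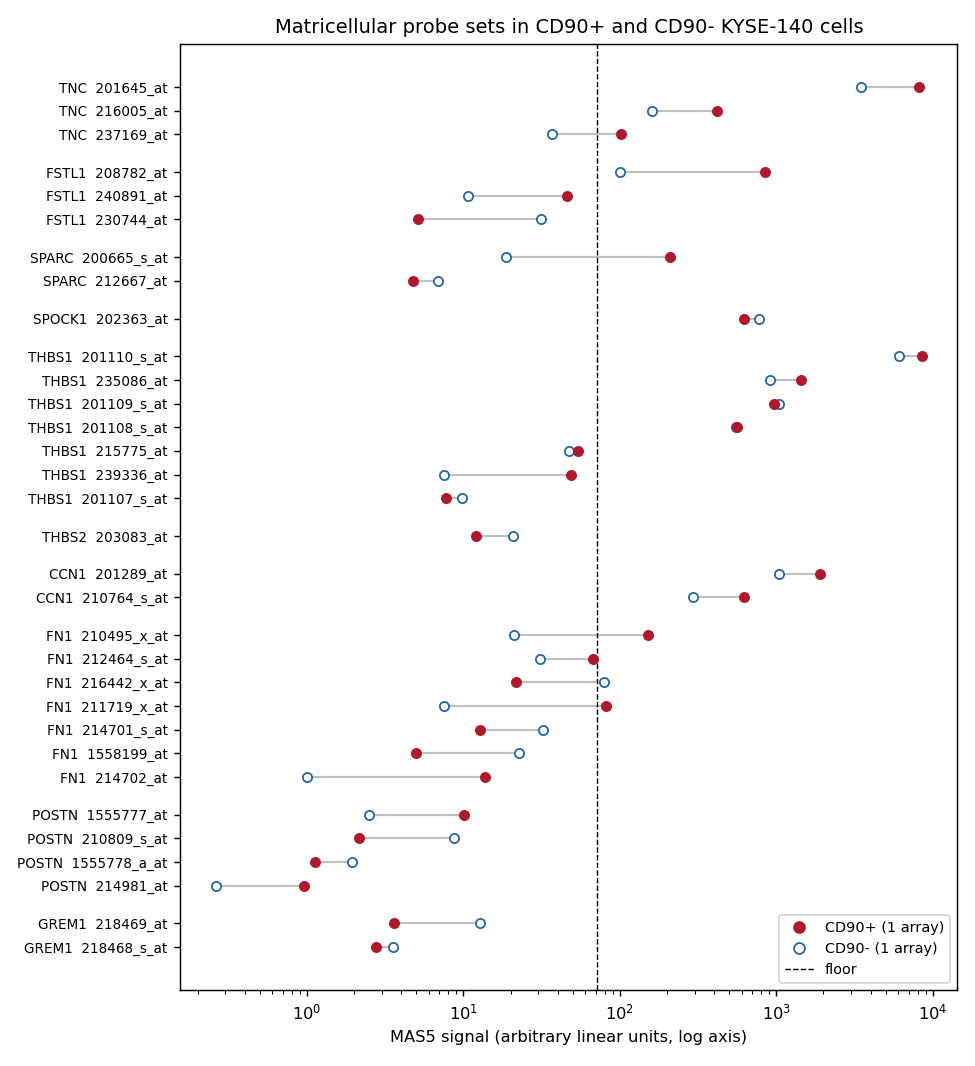
MAS5 signal (log axis) of all 32 probe sets of the 10 genes, with filled points for CD90+ and open points for CD90- cells, 1 array each, and the floor of 71.6 as a dashed line. The TNC pairs lie apart in the same direction, 1 FSTL1 and 1 SPARC probe set show wide gaps, and the POSTN, GREM1 and THBS2 points all lie left of the floor.

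Thrombospondins are calcium-binding glycoproteins that engage CD47, CD36 and integrins, and THBS1 is a known activator of latent TGF-beta. THBS1 (chromosome 15) had 7 probe sets, 4 of them measured and none beyond 2-fold. The brightest, 201110_s_at, read 8550 in CD90+ and 6112 in CD90- cells, for a log2 ratio of 0.48. The others gave log2 ratios of 0.67 (1444 in CD90+ and 908 in CD90- cells), 0.04 (564 in CD90+ and 549 in CD90- cells) and -0.11 (963 in CD90+ and 1038 in CD90- cells). The probe sets of THBS1 thus spanned zero, and their mean of 0.27 was smaller than the SD of 0.37 between them. THBS2 (chromosome 6), its close relative, was under the floor on its 1 probe set, at 12.0 in CD90+ and 20.7 in CD90- cells.

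CCN1 (CYR61, chromosome 1) is an integrin-binding protein and an immediate target of the transcription cofactor YAP with its TEAD partners. Its brighter probe set read 1904 in CD90+ and 1035 in CD90- cells, 1.84-fold higher and just short of the 2-fold threshold, and its second read 622 in CD90+ and 292 in CD90- cells, 2.13-fold higher. Their log2 ratios of 0.88 and 1.09 differed with an SD of 0.15, so CCN1 was the gene nearest to the threshold and fell on either side of it by probe set. CCN2 (CTGF), the closest relative and the other well known YAP target of the family, read 416 in CD90+ and 134 in CD90- cells, 3.11-fold higher. CCN3 read 3036 in CD90+ and 3143 in CD90- cells, and CCN4, CCN5 and CCN6 stayed under the floor.

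Fibronectin (FN1, chromosome 2), the adhesive glycoprotein that cells assemble into fibrils through integrin alpha5 beta1, could not be given one direction. The probe set that stood for it, 212464_s_at, read 67.0 in CD90+ and 31.0 in CD90- cells, both under the floor. Of 7 probe sets 3 reached the floor on 1 array, all of the class prone to cross-hybridisation. The direction of each was fixed by the array on which it passed. One of these, 210495_x_at, read 151 in CD90+ and 20.9 in CD90- cells, at least 2.11-fold higher. Another, 211719_x_at, read 81.1 in CD90+ and 7.53 in CD90- cells, at least 1.13-fold higher. The third, 216442_x_at, went the other way, with 21.6 in CD90+ and 79.2 in CD90- cells, at least 1.11-fold lower.

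Periostin (POSTN, chromosome 13) and gremlin-1 (GREM1, chromosome 15), products known chiefly from activated fibroblasts, were not measurable in either fraction. The 4 POSTN probe sets read between 0.95 and 10.1 in CD90+ and between 0.26 and 8.67 in CD90- cells. The 2 GREM1 probe sets read 3.60 and 2.77 in CD90+ and 12.8 and 3.53 in CD90- cells. Signals this low have no order on the array, and they do not show that the transcripts are absent.

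**Figure D2:**
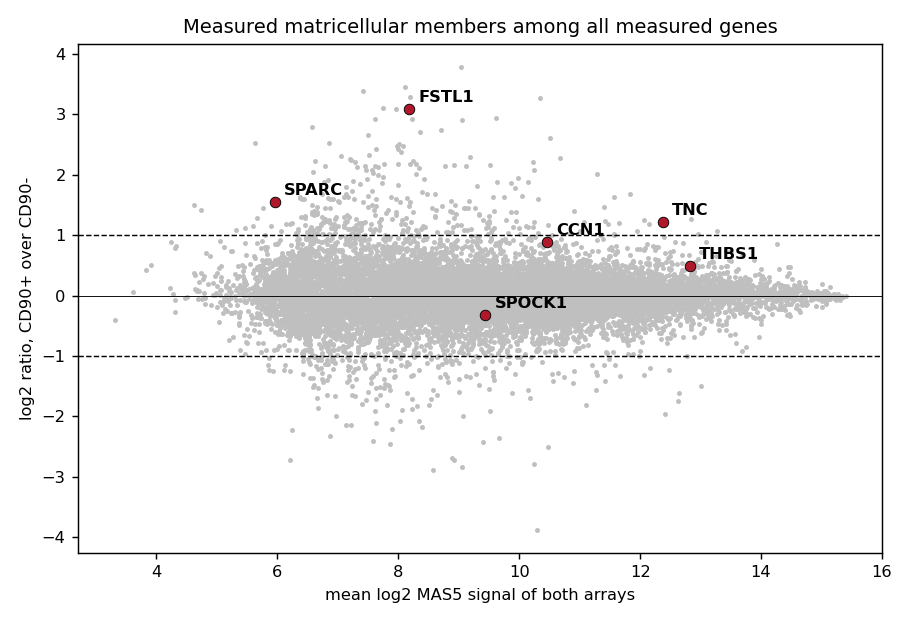
Log2 ratio, CD90+ over CD90-, against the mean log2 signal of both arrays for the 12466 measured genes (grey), with the 6 measured genes of the set in red and dashed lines at 2-fold. FSTL1, SPARC and TNC lie above the upper line at very different brightness, CCN1 just below it at 0.88, and SPOCK1 is the 1 of the 6 below zero.

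The ratios of the 6 measured genes had a median of 1.05 on the log2 scale, beside 0.01 over all measured genes, and 5 of the 6 were above zero. The 6 include SPARC, which was measured only through its CD90+ signal. With a filter on mean signal, which dropped SPARC, 5 genes were measured. Their median was 0.88, and 2 of them were at least 2-fold higher. FSTL1, SPARC and TNC ranked 8, 108 and 188 from the top of the 12466, CCN1 415 and THBS1 1277. The 3 genes beyond 2-fold lie on different chromosomes, and the 50 measured genes nearest to each had median log2 ratios of -0.04 for FSTL1, 0.07 for SPARC and 0.17 for TNC. With these medians subtracted the log2 ratios were 3.12, 1.47 and 1.05 in that order, and that of CCN1 was 1.01.

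Other matricellular proteins, listed by name, had a lower median ratio than the set, although CCN2 at 3.11-fold exceeded the 2.33-fold of TNC. Set and list were chosen with earlier results of these data known, and the set includes SPARC, measured only through its CD90+ signal. The medians thus do not compare independently picked genes. Of the 25 listed genes 13 were measured. Of these 1 was at least 2-fold higher, CCN2, and 0 were lower (beside 2.47% and 1.75% of all measured genes). Ratios above zero numbered 9, and the median log2 ratio was 0.38. At 1.5-fold 5 were higher and 0 lower, where 7.37% of all measured genes were higher and 6.76% lower. Besides CCN2 these 5, singled out after their values were seen, were TGFBI, an integrin-binding TGF-beta target (26536 in CD90+ and 14620 in CD90- cells), the galectin LGALS1 (15022 in CD90+ and 9036 in CD90- cells), the activin inhibitor FSTL3 (167 in CD90+ and 99.4 in CD90- cells) and osteopontin, SPP1 (182 in CD90+ and 119 in CD90- cells). The ratios below zero were those of CCN3, SPARCL1, THBS3 (124 in CD90+ and 143 in CD90- cells) and the tenascin TNXB (37.7 in CD90+ and 81.7 in CD90- cells). The tenascins TNR and TNN were under the floor in both fractions.

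Fibrillar and basement membrane glycoproteins went both ways. Of 17 measured members of that list 1 was higher by 2-fold or more, 0 were lower (beside 2.47% and 1.75% of all measured genes) and the median log2 ratio was 0.23. The 1 was MFAP5, a microfibril-associated glycoprotein, at 637 in CD90+ and 115 in CD90- cells (5.54-fold, 1 measured probe set). At 1.5-fold 7 were higher and 3 lower, beside 7.37% and 6.76% of all measured genes. Of those singled out afterwards, the perlecan gene HSPG2 read 611 in CD90+ and 325 in CD90- cells and EFEMP1, or fibulin-3, 1111 in CD90+ and 599 in CD90- cells. Fibrillin-2, FBN2, read 12632 in CD90+ and 20222 in CD90- cells, with log2 ratios of the same sign on its other 2 measured probe sets. The latent TGF-beta binding protein LTBP1 read 525 in CD90+ and 927 in CD90- cells, but its other measured probe set had the opposite sign.

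The receptors of these proteins had 0 of 18 measured genes beyond 2-fold in either direction. Over all measured genes 2.47% were higher and 1.75% lower, so 0 of 18 is not particular to this list. At 1.5-fold 4 were higher and 1 lower (beside 7.37% and 6.76% of all measured genes), and the median log2 ratio was 0.18. The 2 brightest by the mean log2 signal of both arrays, the integrin subunits ITGB1 and ITGB8, read 18735 and 15316 in CD90+ and 15445 and 14341 in CD90- cells. Singled out afterwards, ITGB5, a partner of the alphav subunit, read 3419 in CD90+ and 1812 in CD90- cells, with the same sign on its other 3 measured probe sets. CD47, a thrombospondin receptor, read 16464 in CD90+ and 10472 in CD90- cells, with the same sign on 5 of its other 6 measured probe sets, and the syndecan SDC4 2115 in CD90+ and 1255 in CD90- cells. PTPRZ1, a receptor phosphatase known to bind tenascins, read 9626 in CD90+ and 18206 in CD90- cells. DIP2A, reported as an FSTL1 receptor, read 596 in CD90+ and 665 in CD90- cells. CD36, TLR4 and ITGA9 stayed under the floor.

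BMP ligands and their antagonists, the partners of GREM1 and FSTL1, had 0 of 9 measured genes beyond 2-fold in either direction. Over all measured genes 2.47% were higher and 1.75% lower, so 0 of 9 is not particular to this list. The median log2 ratio of the 9 was 0.04. The brightest by mean log2 signal were follistatin, FST, at 6847 in CD90+ and 5502 in CD90- cells, and SOSTDC1, a BMP and Wnt antagonist, at 5192 in CD90+ and 3866 in CD90- cells. Targets of YAP and TEAD, the regulators known for CCN1, had 3 of 17 measured genes at least 2-fold higher and 1 lower (beside 2.47% and 1.75% of all measured genes), with 13 of 17 ratios above zero and a median log2 ratio of 0.29. After CCN2 these were AXL, a receptor tyrosine kinase (461 in CD90+ and 102 in CD90- cells), and F3, tissue factor (788 in CD90+ and 353 in CD90- cells). The lower one was NT5E, the nucleotidase CD73, at 61.3 in CD90+ and 186 in CD90- cells. This probe set of NT5E passed the floor only through its CD90- signal, so its direction was fixed and its ratio is a bound.

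**Figure D3:**
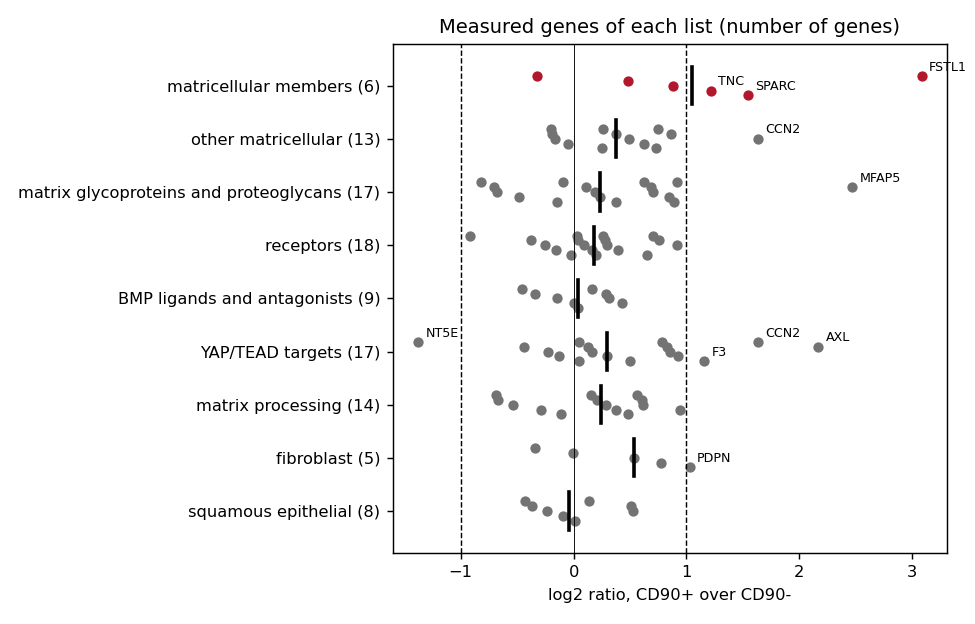
Log2 ratio, CD90+ over CD90-, of each measured gene in the matricellular set and in 8 named lists, with a black bar at each list's median and dashed lines at 2-fold. Medians run from 1.05 in the 6 measured genes of the set down to -0.04 in squamous epithelial genes, and none of the 18 receptors or 9 BMP pathway genes lies beyond a dashed line. Of all measured genes 2.47% were at least 2-fold higher and 1.75% lower. The set and the lists were chosen with earlier results of these data known.

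Markers of the sort and of other cell types were read beside these results. Over all measured genes 2.47% were at least 2-fold higher and 1.75% lower, so marker lists this short would hold few. THY1 was higher in CD90+ cells on its 3 probe sets, the brightest of those outside the cross-hybridising class at 293 in CD90+ and 78.9 in CD90- cells. Squamous epithelial markers were bright in both fractions: 8 of 10 listed genes had a probe set with a single symbol, 8 were measured, 0 were beyond 2-fold, and their summed signal was 89846 in CD90+ and 93655 in CD90- cells. The 2 brightest by mean log2 signal were the lineage factor SOX2, at 23329 in CD90+ and 27407 in CD90- cells, and the adhesion molecule EPCAM, at 18887 in CD90+ and 20209 in CD90- cells. Of 13 fibroblast markers 5 were measured and 1, PDPN, was at least 2-fold higher (2609 in CD90+ and 1278 in CD90- cells), and the list's summed signal was 5266 in CD90+ and 2921 in CD90- cells, mostly from PDPN and COL1A1. COL1A1 read 2125 in CD90+ and 1240 in CD90- cells, 1.71-fold higher, with the same sign on its other 2 measured probe sets. Of the remaining measured markers, ACTA2 read 104 in CD90+ and 29.1 in CD90- cells, PDGFRA 107 in both, and TAGLN 61.5 in CD90+ and 90.8 in CD90- cells. The other 8 fibroblast markers, COL1A2, COL3A1, COL6A3, DCN, LUM, PDGFRB, FAP and PRRX1, were under the floor in both fractions. The part of fibroblast markers in the matricellular results was not tested. Endothelial and leukocyte lists had 2 and 1 measured genes, none beyond 2-fold in either list. These were PECAM1 (98.5 in CD90+ and 70.9 in CD90- cells), ROBO4 (50.7 in CD90+ and 80.7 in CD90- cells) and ITGAM (72.4 in CD90+ and 35.1 in CD90- cells), all within reach of the floor.

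**Figure D4:**
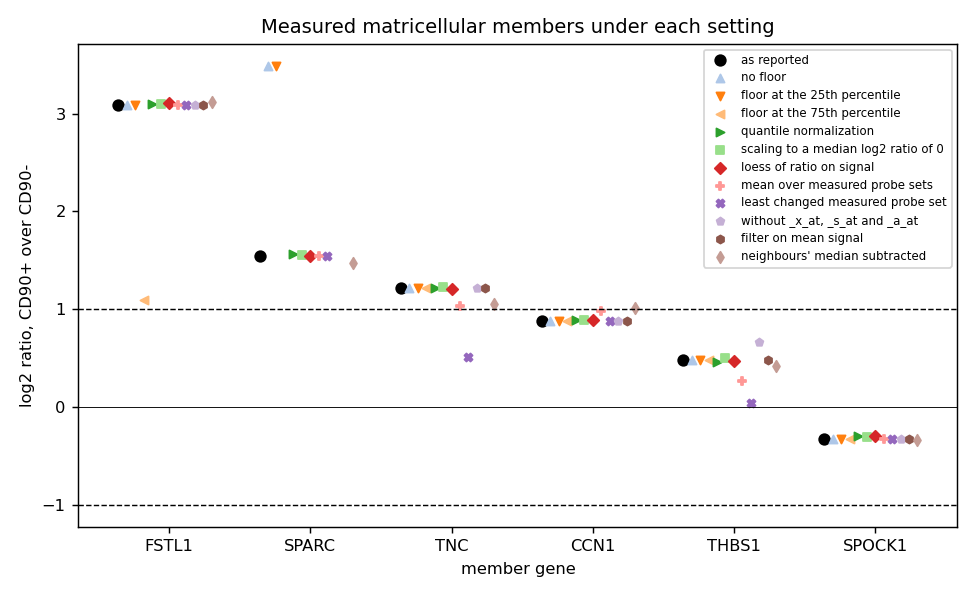
Log2 ratio, CD90+ over CD90-, of the 6 measured genes as reported (black circles) and under 11 other settings, with dashed lines at 2-fold. FSTL1 stays above the upper line in all its settings, and its lowest value, 1.09, is a bound. SPARC has a value in 8 of the 11 other settings. TNC is lowest at 0.51 by its least changed probe set, which is also a bound, and SPOCK1 stays below zero. FSTL1, SPARC and SPOCK1 each had 1 measured probe set, which the probe set rules could only repeat or drop.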

How the data were processed

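Linear signal intensities were deposited for 54675 probe sets on 2 arrays. The authors computed them with MAS5, per the submitters' processing notes, a method that combines perfect-match and mismatch probes. Its version is not given in the sources used here. On both arrays the 2 to 98% trimmed mean was 500.1, so the deposited intensity values were already scaled alike. MAS5 leaves noisy, very small values in dim probe sets.

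Names came from the platform annotation and the RefSeq gene table of GRCh38.p14: 41097 had 1 symbol, 1801 several and 11777 none, and 62 control probe sets were left out. Signals under 71.6, the geometric mean of the arrays' medians, were raised to that floor before taking log2 ratios. The brightest probe set stood for each gene, and the _x_at class was a last resort. Genes at or above the floor on at least 1 array counted as measured. With 1 array per population there is no test.

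All 10 genes were named, and each list contributed at most 4 higher and 4 lower genes past 2-fold, or else its 2 brightest by mean log2 signal. Other names were chosen after their values were seen. The genes and lists were chosen with earlier results of these data known. The procedure was tested on simulated data. The software was numpy 2.4.6, pandas 2.3.3, scipy 1.17.1, statsmodels 0.14.6 and matplotlib 3.10.9 under Python 3.11.15. The alternatives were other floors, quantile, median and loess scaling, other probe set rules, a filter on mean signal and thresholds of 1.5-fold and 3-fold. Subtraction of the median of the 50 nearest genes was added after the data were seen.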

Additional observations from a re-analysis of the deposited data

How the results depend on the processing

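FSTL1 kept its direction and stayed at least 2-fold higher in all 11 alternatives, with log2 ratios from 1.09 to 3.12. TNC did so in 10 of 11, the exception being its least changed probe set, 237169_at, at 0.51. That value is a lower bound, because the CD90- signal of that probe set, 36.6, was under the floor. FSTL1 had 1 measured probe set, so the other probe set rules could only repeat its value of 3.08 and are no separate support. Its 1.09 is a bound from the 75th percentile floor of 397, which only its CD90+ signal reached. The direction of FSTL1 was fixed in that setting, so its value there is no support either. SPARC was at least 2-fold higher in the 8 alternatives that gave it a value, from 1.47 to 3.49. The floor at the 75th percentile, the filter on mean signal and the removal of shared probe sets gave none. At the median floor SPARC was measured only through the CD90+ signal of 1 probe set. Its direction was therefore fixed in the alternatives that kept that floor, and their agreement is no support. CCN1 ran from 0.88 to 1.01, THBS1 from 0.04 to 0.67 and SPOCK1 from -0.33 to -0.29. The counts followed the floor. Without a floor 5 of 10 genes were at least 2-fold higher and 1 lower. In that setting 14 of 32 probe sets were higher and 6 lower. A 25th percentile floor left 23 probe sets measured, 11 of them higher and 1 lower. A 75th percentile floor left 10, of which 2 were higher. Without shared probe sets 3 of 7 probe sets were higher, because fewer were tested. The shares over all genes and probe sets were taken at the median floor only. The counts under other floors therefore have no background to be read against. At a 3-fold threshold 1 gene and 1 probe set were higher. By the least changed probe set the median log2 ratio was 0.51 over 7 measured genes, FN1 included. That median is the TNC bound itself, so it is not read against the median of the 6. The scalings moved no count. No paired analysis was possible because each population had 1 array and the labels give no replicate numbers. Signal over background limits what can be said of FN1, THBS2, POSTN and GREM1.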

Other observations

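Enzymes and chaperones that fold, crosslink or trim matrix proteins went both ways. Of 14 measured genes of that list 0 were beyond 2-fold. Over all measured genes 2.47% were higher and 1.75% lower, so 0 of 14 is not particular to this list. Of the 14 ratios 9 were above zero and the median log2 ratio was 0.24, with 3 genes higher and 2 lower by 1.5-fold or more, beside 7.37% and 6.76% of all measured genes. Of the 2 brightest by mean log2 signal, the collagen chaperone SERPINH1 read 3690 in CD90+ and 1926 in CD90- cells, and the prolyl hydroxylase subunit P4HA2 2717 in CD90+ and 1940 in CD90- cells. The lysyl hydroxylase PLOD2, chosen after its values were seen, read 2624 in CD90+ and 1718 in CD90- cells. Chosen in the same way, the lysyl oxidase relatives LOXL1 and LOXL3 read 107 and 372 in CD90+ and 170 and 599 in CD90- cells.

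Of the 17 measured YAP and TEAD targets 7 were higher and 1 lower by 1.5-fold or more, beside 7.37% and 6.76% of all measured genes. Among the higher ones, the ligand TGFB2 read 551 in CD90+ and 305 in CD90- cells. The RNA-binding protein RBMS3 read 1024 in CD90+ and 539 in CD90- cells. Both were chosen after their values were seen, and their other 1 and 3 measured probe sets had the same sign.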
